A study of Mus musculus with 6 samples.

Results

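L1 family proteins and contactins are adhesion molecules of the axon surface, and the transcripts of 10 of them (L1cam, Chl1, Nrcam, Nfasc and Cntn1 to Cntn6) were read in cervical motoneurons from both sides of the spinal cord. The members were taken by name: every probe set that the array annotation gives to exactly 1 of these genes was used, which gave 26 probe sets, and all 10 genes had at least 1, of 18193 genes with a probe set of their own. The 6 arrays hold the left and the right pool of 3 littermate mouse embryos at E11.5, all carrying the HB9::GFP transgene, in which the promoter of the motoneuron factor HB9 (Mnx1) drives a green fluorescent protein. The fluorescent regions of both sides were laser-captured from the same frozen sections, so right and left were compared within each embryo. The design held no treatment and no non-transgenic group. A pool is a captured piece of tissue, in which fewer cells of a type and less RNA per cell cannot be told apart. The study asked whether motoneurons that innervate the left and right diaphragm differ in their transcripts before their axons branch, and adhesion molecules of the growing axon bear on that question.

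Proteins of the L1 family carry immunoglobulin and fibronectin type III domains outside the cell, cross the membrane and bind ankyrin on the inside. Contactins have a similar outer part but are held in the membrane by a lipid (GPI) anchor and signal through partners beside them. Members of both groups bind themselves, each other and further receptors, and they are known for axon growth, bundling of axons into nerves and, later, for the organisation of the initial segment and the node of Ranvier. Cntn2, long known as TAG-1, is a classical surface protein of young motor and commissural axons in the embryonic spinal cord.

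The promoters of the members range from rich in the dinucleotide CG to free of it, and 4 are printed to show this range: those of Nrcam and Cntn5, which hold the most and the second most, that of Chl1, which passed a test below, and that of Cntn3, which holds none. The sequences are those of RefSeq on GRCm38.p6, where all 10 members were matched with 16 windows, each from 250 bases before to 50 bases after an annotated start, written 5′ to 3′ with each CG in capitals.
Nrcam, chr12:44328635-44328934, + strand: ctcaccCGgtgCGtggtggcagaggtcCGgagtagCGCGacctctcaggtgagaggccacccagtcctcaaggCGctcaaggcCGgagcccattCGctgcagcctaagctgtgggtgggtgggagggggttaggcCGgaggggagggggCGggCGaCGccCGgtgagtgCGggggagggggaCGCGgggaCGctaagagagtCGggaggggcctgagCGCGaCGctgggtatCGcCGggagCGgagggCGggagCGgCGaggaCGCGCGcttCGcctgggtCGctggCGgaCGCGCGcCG
Chl1, chr6:103510626-103510925, + strand: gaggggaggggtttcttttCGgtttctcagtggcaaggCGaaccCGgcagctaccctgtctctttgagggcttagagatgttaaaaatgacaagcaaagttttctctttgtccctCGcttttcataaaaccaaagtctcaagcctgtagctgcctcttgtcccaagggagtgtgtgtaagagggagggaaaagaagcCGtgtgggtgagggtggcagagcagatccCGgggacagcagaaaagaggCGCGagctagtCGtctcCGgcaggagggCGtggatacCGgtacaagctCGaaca
Cntn5, chr9:10904677-10904976, - strand: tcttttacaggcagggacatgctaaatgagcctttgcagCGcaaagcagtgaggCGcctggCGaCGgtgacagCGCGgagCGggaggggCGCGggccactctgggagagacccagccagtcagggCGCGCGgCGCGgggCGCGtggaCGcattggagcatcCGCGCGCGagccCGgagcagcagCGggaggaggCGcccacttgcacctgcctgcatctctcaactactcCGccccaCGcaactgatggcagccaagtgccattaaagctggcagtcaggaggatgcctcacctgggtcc
Cntn3, chr6:102464618-102464917, - strand: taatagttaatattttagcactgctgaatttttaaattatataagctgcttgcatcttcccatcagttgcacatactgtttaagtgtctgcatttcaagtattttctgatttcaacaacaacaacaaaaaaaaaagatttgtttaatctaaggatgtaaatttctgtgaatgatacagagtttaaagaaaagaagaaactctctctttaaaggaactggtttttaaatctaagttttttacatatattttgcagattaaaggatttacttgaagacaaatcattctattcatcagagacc
The Nrcam window holds 37 CG dinucleotides, a number reached by 5.58% of the 32851 windows in the table, whose median is 7. The Chl1 window holds 13, the printed Cntn5 window 26 and the Cntn3 window 0. The GC box letters GGGCGG, searched on both strands, occur in 6 of the 16 member windows (L1cam, Nrcam, Cntn5 and Nfasc) and in 35.7% of all windows. The letters TATAAA, also on both strands, occur in 1 member window (Cntn1) and in 13.6% of all windows. Among protein-coding genes, Cntn3, Chl1, Cntn6 and Cntn4 follow each other directly on chromosome 6, and Cntn2 lies directly before Nfasc on chromosome 1.

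The values are MAS5 signals, which the authors scaled so that each array had a trimmed mean of 500, and array medians ran from 99.9 to 118. Testing was restricted to probe sets that read at least 200 on 1 or more arrays. The captures carried their motoneuron label: all 8 motoneuron markers reached that limit, with a summed signal of 14326 to 19721 over the pools, and Mnx1 itself read 3520 to 5219. The right pool of embryo 1 stood apart in mesenchyme genes. The 8 mesenchyme and sclerotome markers, which include Col1a1 and Col1a2, summed to 15664 there and to 882 to 2153 in the other 5 pools, and the 4 skeletal muscle markers summed to 3633 against 102 to 252. Without embryo 1, 0 of the 20 tested member probe sets met the fold rule defined below, against 398 of all 21853 tested probe sets. With limma, 0 of the 20 passed with adjustment (1 of all), and 1 member probe set had an unadjusted p under 0.05. Means above 0 numbered 13 (51.3% of all), against 15 with all embryos (52.5% of all). The 4 measured roof plate and dorsal progenitor markers summed higher on the right in all 3 embryos, from 315 to 2175, from 309 to 1085 and from 458 to 647. In embryos 1 and 2 most of this was Zic1, while Lmx1a stayed below the limit. Zic1 read 72.6, 24.5 and 137 in the left pools and 1745, 693 and 150 in the right pools. In embryo 3 Msx1 (95.2 on the left, 206.9 on the right) and Olig3 (204.3 and 279.5) rose more than Zic1. In embryo 2 the mesenchyme sum was also higher on the right, at 2153 against 882. The part of these tissues in the ratios was not tested further.

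Transcripts of 8 members reached the signal limit in at least 1 pool, with 20 of the 26 probe sets, and Cntn4 and Cntn5 did not. Signals of different probe sets are not comparable with each other as levels, as the 2 probe sets of L1cam show, which read 3742 to 5116 and 294 to 849. Each probe set is therefore followed over the pools, and genes are not ordered by brightness.

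**Figure D1:**
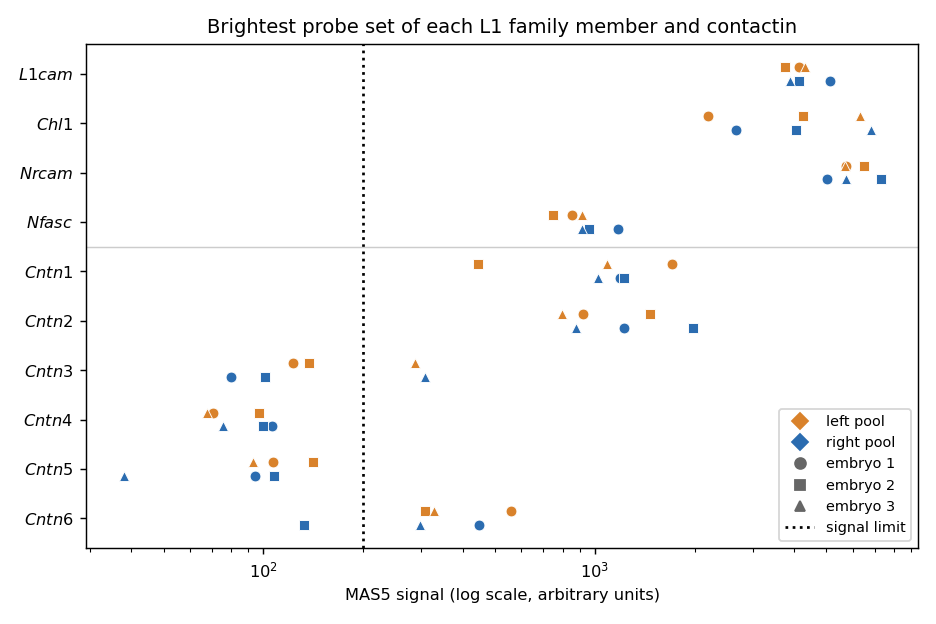
MAS5 signal (log scale, arbitrary units) of the brightest probe set of each member in the left (orange) and right (blue) pools of embryos 1 (circles), 2 (squares) and 3 (triangles), with L1 family genes above the grey line and contactins below. Cntn4 and Cntn5 lie left of the dotted limit of 200 in all 6 pools, Cntn3 passes it in the pools of embryo 3, and Chl1 runs from 2200 to 6803.

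L1cam, the founding member, which promotes axon growth and bundling by binding itself on neighbouring axons, was read at similar signals on both sides. In its brightest probe set (1450435_at), the left pools of embryos 1, 2 and 3 read 4127, 3742 and 4309 and the right pools 5116, 4127 and 3894. The right pool was higher in embryos 1 and 2 and lower in embryo 3, and the groups overlapped. The right pool over the left pool of an embryo, as log2(R/L), averaged 0.10 ± 0.23 (SD, n = 3 embryos), with a 95% interval of −0.22 to 0.43 and an adjusted p of 0.974 by limma with embryo as a block. The dimmer probe set (1421958_at) averaged 0.03 ± 0.68 and ran from −0.56 in embryo 1 to 0.78 in embryo 2.

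Chl1, the close homologue of L1, differed more between embryos than between sides. Its brightest probe set (1435190_at) read 2200, 4238 and 6298 in the left pools against 2668, 4052 and 6803 in the right pools. Both pools of embryo 1 lay below all others and both pools of embryo 3 above all others, whereas the sides overlapped. Its log2(R/L) was 0.28, −0.06 and 0.11, with a mean of 0.11 ± 0.17 (95% interval −0.20 to 0.42, limma adjusted p = 0.974). A second probe set (1417795_at) read 1280, 2904 and 2349 in the left pools against 1209, 3574 and 2342 in the right pools, with a mean log2(R/L) of 0.07 ± 0.20. The other 2 Chl1 probe sets stayed at or under 171 and were not tested.

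Nrcam, which binds contactins and neurofascin and serves as a co-receptor for a semaphorin together with neuropilin-2, had the most tested probe sets of the L1 family, 4. In the brightest (1430583_at) the left pools read 5711, 6472 and 5703 and the right pools 5026, 7284 and 5745, so that the left lay within the range of the right. Its log2(R/L) averaged −0.001 ± 0.18 with a 95% interval of −0.29 to 0.29 (limma adjusted p = 0.999), and the sign of so small a mean turned with quantile normalization. The second probe set (1434709_at) averaged −0.01 ± 0.47, from −0.49 in embryo 1 to 0.45 in embryo 2. The highest mean of all members, 1.38 ± 2.69, belonged to the dim Nrcam probe set 1443281_at and came from 1 left pool at 7.47 in embryo 1 against 167 on the right. Without embryo 1 its mean was −0.17, and a signal as low as 7.47 gives no exact ratio.

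Nfasc, the gene of neurofascin, which gathers sodium channels at the axon initial segment of mature neurons, read slightly higher on the right in all 3 embryos in 2 of its 3 tested probe sets, without passing either rule. The brightest (1436205_at) read 854, 750 and 912 in the left pools against 1174, 963 and 916 in the right pools. All right pools exceeded all left pools here, narrowly in embryo 3. How often the sides separate in this way over all tested probe sets was not counted, so no weight is given to it. Its log2(R/L) was 0.46, 0.36 and 0.01 (mean 0.28 ± 0.24, 95% interval −0.17 to 0.72, limma adjusted p = 0.974). The dimmest (1459357_at), with 139, 209 and 222 in the left pools against 232, 351 and 248 in the right pools, also kept the sides apart. Its ratios were 0.74, 0.75 and 0.16, and the mean of 0.55 ± 0.34 fell just short of the limit of 0.58 that stands for a 1.5-fold change (95% interval −0.21 to 1.31). Without embryo 3 the mean was 0.745 and the fold rule described below was met. The roof plate and mesenchyme sums above were also higher on the right in each embryo, least in embryo 3, and their part in the Nfasc ratios was not tested. The third Nfasc probe set (1456068_at) averaged 0.20 ± 0.42, with the left pool higher in embryo 1.

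Cntn1, a contactin that pairs with Cntnap1 at the paranode of myelinated axons and binds the phosphatase Ptprz1, dipped in the left pool of embryo 2. Its brightest probe set (1449563_at) read 1712, 445 and 1088 in the left pools against 1194, 1228 and 1022 in the right pools. The right pools lay close together, and only embryo 2 had the right side higher. The mean log2(R/L) of 0.28 ± 1.04 (95% interval −0.49 to 1.06) changed to −0.305 without embryo 2. A second probe set (1452981_at) read 1610, 382 and 1189 in the left pools against 1810, 680 and 1132 in the right pools, lowest in both pools of embryo 2, with a mean of 0.31 ± 0.47.

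Cntn2 (TAG-1) was read by 4 tested probe sets, more than any other contactin. The brightest (1435165_at) read 923, 1472 and 798 in the left pools against 1226, 1978 and 877 in the right pools. The right pool was higher in each embryo, but the sides overlapped because embryo 2 was high and embryo 3 low on both. Its log2(R/L) of 0.41, 0.43 and 0.14 gave a mean of 0.32 ± 0.16, the smallest side p of all members (limma unadjusted p = 0.102, adjusted p = 0.974, 95% interval −0.08 to 0.73). The second probe set (1450523_at), at 627, 867 and 419 in the left pools against 613, 695 and 467 in the right pools, had the opposite sign on average (−0.06 ± 0.24). The remaining Cntn2 probe sets averaged 0.16 and 0.28. With 3 pairs an exact sign-flip test of 1 probe set cannot give a p below 0.25.

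The other contactins were near or below the limit. Cntn6 (NB-3), a contactin of developing neurons, read 558, 307 and 327 in the left pools against 448, 133 and 296 in the right pools (1422649_at). It was the only tested member probe set with the left pool higher in all 3 embryos, and the sides overlapped. Its log2(R/L) of −0.32, −1.21 and −0.14 averaged −0.56 ± 0.57 (95% interval −1.26 to 0.15, limma adjusted p = 0.974), and the mean without embryo 2, which holds the lowest pool, was −0.231. Cntn3 passed the limit in embryo 3 alone: 1420739_at read 122, 137 and 286 in the left pools against 80.1, 101 and 308 in the right pools, with a mean log2(R/L) of −0.32 ± 0.37, and 1438628_x_at averaged 0.02 ± 0.65.

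Cntn4 and Cntn5, contactins known from olfactory and auditory circuits, read at most 107 and 141. The 2 Cntn4 probe sets ranged from 67.7 to 107 and from 6.51 to 75.4, and the Cntn5 probe set from 37.9 to 141. Signals without detection calls do not show absence, so these transcripts were not measurable above the limit here, and no side comparison was made for them.

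**Figure D2:**
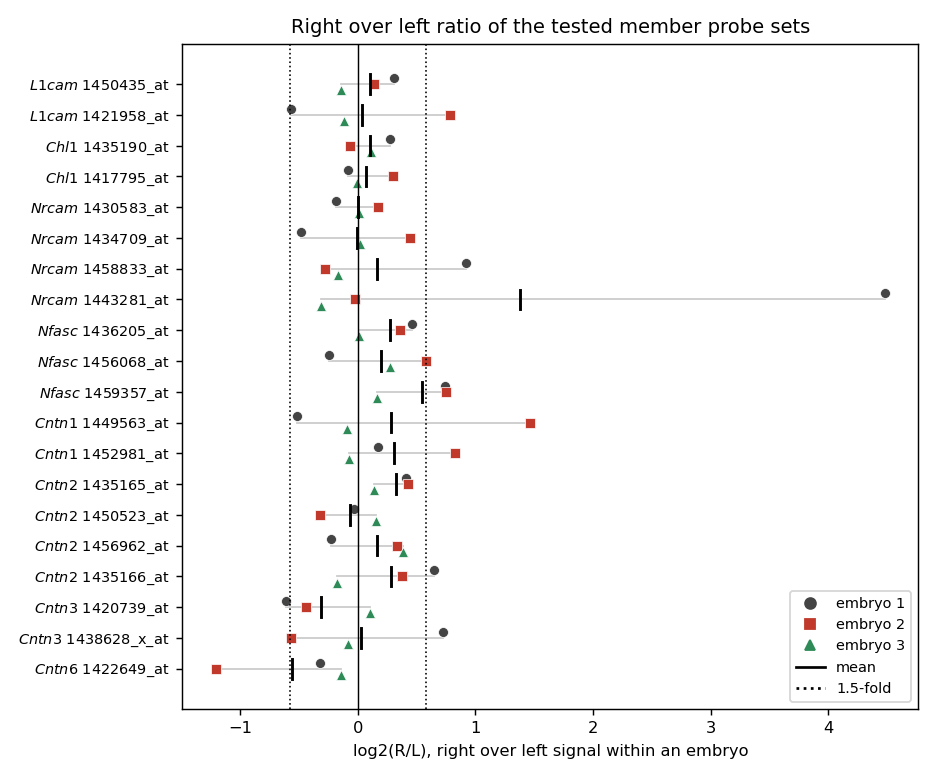
Log2(R/L) within embryo 1 (black circles), 2 (red squares) and 3 (green triangles) for the 20 tested member probe sets, with the mean as a black bar and dotted lines at the 1.5-fold limit of 0.58 on the log2 scale. All means lie inside the limit except that of Nrcam 1443281_at, which rests on 1 embryo.

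No member differed between the sides by the rules applied. The fold rule of the study's methods asks that all 3 embryos share the direction and that both the average and 2 or more of the embryos exceed 1.5-fold. It was met by 0 of the 20 tested member probe sets, against 3.94% of all 21853 tested probe sets. With limma, 0 of the 20 passed an adjusted p of 0.05, 0 had an unadjusted p under 0.05 (3.4% of all), and the lowest adjusted p was 0.974, while 0 of all tested probe sets (0.0%) passed the adjusted threshold. The sign was shared by all 3 embryos in 4 of the 20, against 23.5% of all probe sets. The right was higher in 3 (Nfasc 1436205_at and 1459357_at, and Cntn2 1435165_at; 12.7% of all) and the left in 1 (Cntn6; 10.8% of all). The median of |log2(R/L)| over the 20 was 0.183, the same as over all tested probe sets. Means above 0 were found for 15 of the 20 (52.5% of all), but for 12 after scaling to equal array medians (39.2% of all). The median log2(R/L) of the 8 brightest probe sets was 0.105, with 0.05, 0.16 and 0.01 in embryos 1, 2 and 3, beside 0.016 over all probe sets.

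Missing the threshold does not show that the sides were equal, and the intervals give what remains possible. For 6 probe sets of 4 genes (L1cam 1450435_at, both tested Chl1 probe sets, Nrcam 1430583_at and 1434709_at, and Cntn2 1450523_at), the 95% interval lay within 1.5-fold in both directions. For the other 14 it reached beyond 1.5-fold on at least 1 side. These intervals are for single probe sets and are not adjusted for their number.

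Differences among the 3 embryos passed the adjusted threshold for 1 member probe set, of Chl1. The embryo term of the same fit compares these 3 animals, with the left and right pool of each as the spread, and says nothing about a treatment or a side. For Chl1 (1435190_at), embryos 1, 2 and 3 had mean signals of 2434, 4145 and 6551, and embryo 3 exceeded embryo 1 by 1.43 on the log2 scale (limma adjusted p = 0.0356 for the embryo term). No other of the 20 member probe sets passed an adjusted p of 0.05, and 0.27% of all tested probe sets did. The call ended without embryo 3 (adjusted p = 0.46), with no filter on low signal (0.108) and without a trend in the variance (0.271), within a range of 0.000625 to 0.46 over the alternatives. At an unadjusted p under 0.05 there were 10 member probe sets, 1 of L1cam, 2 of Chl1, 1 of Nrcam, 1 of Cntn1, 3 of Cntn2, 1 of Cntn3 and 1 of Cntn6, against 15.3% of all.

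Probe sets of 1 gene did not always rank the embryos alike. The second Chl1 probe set also had embryo 1 lowest (mean 1245) but embryo 2 highest (3239, against 2345 in embryo 3, limma adjusted p = 0.0537), so the order of embryos 2 and 3 was not shared. Both tested Cntn1 probe sets were lowest in embryo 2: 1452981_at had means of 1710, 531 and 1161 (limma adjusted p = 0.0678). All 4 tested Cntn2 probe sets were highest in embryo 2, and 1435165_at had means of 1075, 1725 and 838 (adjusted p = 0.135). Cntn1 was thus lowest in the embryo in which Cntn2 was highest. Both Cntn3 probe sets were highest in embryo 3, where 1420739_at averaged 297 against 101 and 119 in embryos 1 and 2 (adjusted p = 0.277), and Cntn6 was highest in embryo 1 (503, 220 and 312, adjusted p = 0.25). The brightest Nrcam, Nfasc and L1cam probe sets differed by at most 0.36 on the log2 scale between any pair of embryos, but dimmer ones of the same genes differed by more. L1cam 1421958_at was lower in embryo 3 than in embryo 2 by a log2 difference of −1.08 (limma adjusted p = 0.293), whereas 1450435_at was lowest in embryo 2. Nrcam 1458833_at was higher in embryo 2 than in embryo 1 by 1.62 (limma adjusted p = 0.148), and all 4 Nrcam probe sets were highest in embryo 2. The 3 tested Nfasc probe sets each had another embryo highest.

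**Figure D3:**
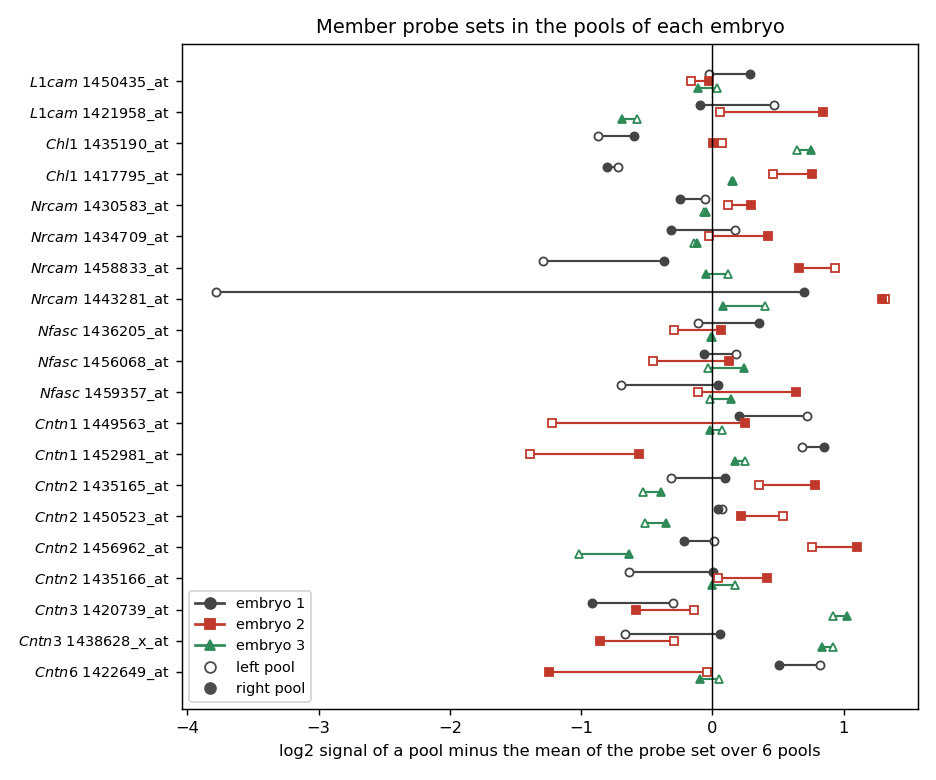
Log2 signal of each pool minus the mean of its probe set over the 6 pools, for the 20 tested member probe sets, with the left (open) and right (filled) pool of each embryo joined by a line. The pairs of Chl1 1435190_at lie apart from each other in the order of embryos 1, 2 and 3, Cntn1 1452981_at is lowest and Cntn2 1435165_at highest in embryo 2, and the long line of Nrcam 1443281_at is the left pool of embryo 1 at a signal of 7.47.

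Marker lists of other cells were read in the same pools, and not all of them kept the embryos apart. The 8 markers of commissural and dorsal interneurons, of which Robo3, Lhx2, Barhl1, Barhl2 and Tlx3 stayed below the limit, had summed signals (left, right) of 537 and 774 for embryo 1, 1712 and 1500 for embryo 2, 1414 and 1354 for embryo 3. Lbx1, a dorsal interneuron factor, read 162 and 126 in embryo 1 against 535 to 819 in the others. The 7 measured progenitor markers gave 4370 and 7466, 7641 and 6699, then 8426 and 7914 in the same order. Here the right pool of embryo 1 lay between the 2 pools of embryo 2. The 6 measured ventral interneuron markers gave 1350 and 1461, 1295 and 1499, then 1477 and 1687, with embryo 1 inside the range of embryo 2. Motoneuron sums fell from embryo 1 to embryo 3, at 19721 and 19041, 17615 and 15762, then 14483 and 14326. Chl1 was lowest in the embryo with the lowest commissural and dorsal interneuron sums and the highest motoneuron sums. Between embryos 2 and 3, the dorsal sums and the second Chl1 probe set were higher in embryo 2, and the brightest Chl1 probe set in embryo 3. The part of these cells in the Chl1 signal was not tested.

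Partners of these adhesion molecules were read from lists drawn up by their known roles. In all, 65 genes were listed, of which 56 had a probe set of their own and 51 reached the limit with 130 probe sets. Of these, 3 probe sets met the fold rule (1 higher on the right and 2 on the left, against 2.4% and 1.55% of all tested probe sets), 0 passed limma with adjustment and 8 had an unadjusted p under 0.05, against 3.4% of all. The median log2(R/L) over the 130 was 0.015.

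Among 13 tested genes for membrane and matrix partners (38 probe sets, median 0.03), 1 probe set met the rule. It was that of Tnr, tenascin-R, a matrix ligand of contactins, which read 367, 300 and 143 in the left pools against 237, 151 and 120 in the right pools (log2(R/L) −0.63 ± 0.37, limma adjusted p = 0.974). The sides of Tnr overlapped, and the call ended with 50 added to each signal, without embryo 1, without embryo 2 and with a highest signal of at least 500. Contactin-associated proteins were represented by Cntnap2, the axonal partner of Cntn2, at 749 to 1497 in its brightest probe set with a mean log2(R/L) of 0.20 ± 0.27, and by Cntnap4 at 154 to 214. The 13 membrane skeleton genes (36 probe sets, median 0.02) had 0 probe sets past the rule. Those given by their high signal, with no order of levels implied, are Dcx, doublecortin, a microtubule protein that binds phosphorylated neurofascin, with a mean of −0.06 ± 0.09, and of the spectrin Sptbn1, with 0.04 ± 0.14.

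Of the sheddases that release the outer part of L1 proteins and the secretase subunits that act on what is left, 5 genes were tested with 12 probe sets (median 0.16). Adam17 met the rule with its dimmest probe set (1421857_at), at 263, 124 and 49.1 in the left pools against 360, 189 and 108 in the right pools (log2(R/L) 0.73 ± 0.36, limma adjusted p = 0.974). Its other probe sets averaged 0.10 and 0.40 and did not share a sign over the embryos. The Adam17 call ended with quantile normalization, median scaling, 50 added, a limit of 200 on the mean signal or of 500 on the highest, gene means, and without embryo 2 or embryo 3. Adam10, the main sheddase of L1, read 4950 to 5353 in its brightest probe set with a mean of 0.04 ± 0.07. The 6 tested kinases and endocytic adaptors (13 probe sets, median −0.015) had 0 past the rule: Csnk2a1, a subunit of casein kinase 2, averaged −0.06 ± 0.50 and Fyn, a Src family kinase downstream of contactins, −0.11 ± 0.02.

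**Figure D4:**
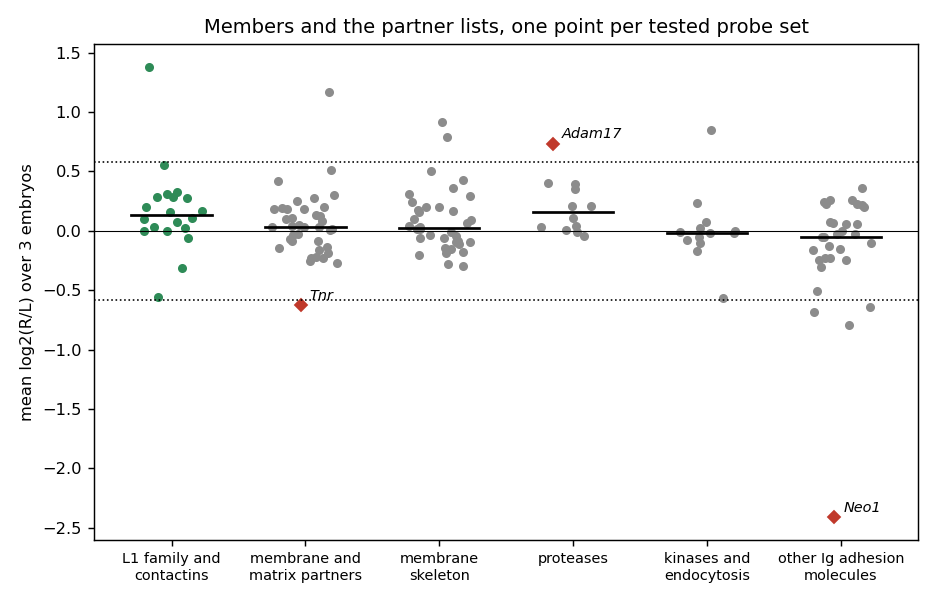
Mean log2(R/L) over 3 embryos for each tested probe set of the members (green) and of the 5 partner lists (grey), with medians as black bars, dotted lines at 1.5-fold and red diamonds for the 3 probe sets that met the fold rule (Tnr, Adam17 and Neo1). The medians of the lists lie between −0.05 and 0.16, and no member is marked.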

How the data were processed

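Amplified, biotin-labelled RNA of the captured GFP-positive regions was read on Affymetrix mouse arrays, with 1 array for each left and right pool of 3 embryos. The authors deposited linear signal intensities from MAS5 (Affymetrix Expression Console, version not stated), scaled so that the mean of an array is 500 once 2% of probe sets at either end are dropped.

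Of 45101 probe sets, 64 controls were left out. The rest were annotated to 1 gene (34945), several (932) or none (9160), and a probe set given to several genes was not named. Probe sets with a highest signal of at least 200 were tested (21853), on log2 signals with no added constant and no further scaling. The fold rule defined in the report follows the study's methods, as does the signal limit, but their further filter on present calls was not applied. In addition, limma 3.58.1 in R 4.3.3 was fitted with side and embryo as terms, a trend in the variance and Benjamini-Hochberg adjustment over all tested probe sets (threshold 0.05). Tables were made with Python 3.11.15. The embryo is a block because both pools come from the same animal and sections. After subtraction of side means, pools of embryos 1, 2 and 3 correlated at 0.241, 0.215 and 0.495. Signals are not corrected for the makeup of the capture, and amplification of small samples can add to the spread of dim probe sets.

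The members and lists were chosen with earlier results of these data known. All member probe sets are accounted for. The brightest of each tested gene (highest mean log2 signal), as well as those that passed a rule, are given in all 6 pools. Cntn4 and Cntn5, which were not tested, are given by their ranges in the text. Partners are named where they met the fold rule, otherwise the brightest are. Further member probe sets, and Cntnap2, Cntnap4, Adam10, Dcc, Alcam and Lbx1, were described after their values were seen. The fit was tested on simulated data, and precision is limited by the number of arrays. Results were recomputed with quantile normalization, with median scaling, after adding 50 to signals, without each embryo, with no signal limit, with a limit of 500 or on the mean, without the embryo term or the variance trend, with a 2-fold limit, with 1.5-fold required in every embryo, and on gene means.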

Additional observations from a re-analysis of the deposited data

How the results depend on the processing

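Side comparisons of the members kept their outcome under nearly all settings. The fold rule gave 0 member probe sets under each alternative except that leaving out 1 embryo gave 0 to 1 (Nfasc 1459357_at without embryo 3). The stricter limits on fold and on signal could only give 0 here, because they admit no further probe set. With limma 0 passed under each setting, also with no replicate block (0 of 20). Leaving out 1 embryo moved the number of member probe sets that differed among embryos from 1 to between 0 and 4. It was 3 with median scaling and with 50 added (Cntn1 1452981_at joining both Chl1 probe sets), 2 with a highest signal of at least 500, and 0 with no filter and with no variance trend. Over all tested probe sets this count was 59, but 249 with median scaling, 165 with 50 added, 14 with no filter, 0 with no variance trend, and 788, 846 and 5 without embryo 1, 2 and 3. For the partners the fold rule gave 1 to 7 probe sets without 1 embryo, 5 with no filter, 1 with 50 added, with a limit on the mean signal and with gene means, and 0 with a highest signal of 500, a 2-fold limit or 1.5-fold in all embryos, against 3. Quantile normalization also gave 3, with Sptbn1 in and Adam17 out. Median scaling gave 4, with Sptbn1 and Lsamp in and Adam17 out. The median of the 8 brightest members fell to 0.0187 with median scaling, which moved the median of all probe sets from 0.016 to −0.07.

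Of 150 means of member probe sets listed under other settings, 144 kept their sign, but many of these could not change. Another signal limit, no embryo term or no variance trend leaves each mean as it is. Only quantile normalization, median scaling and a constant added to the signals alter the ratios. All 6 reversals came from quantile normalization and median scaling, so the 144 are no measure of robustness. Quantile normalization turned Nrcam 1430583_at to 0.0243, Nrcam 1434709_at to 0.0202 and Cntn3 1438628_x_at to −0.0889. Median scaling turned L1cam 1421958_at to −0.0513, Chl1 1417795_at to −0.0156 and Cntn3 1438628_x_at to −0.0615. Without 1 embryo, 10 of 20 means changed sign, with ranges of −0.00237 to 0.226 and −0.338 to 0.334 (L1cam 1450435_at, 1421958_at), −0.0438 to 0.148 (Chl1 1417795_at), −0.0869 to 0.0905, −0.233 to 0.234, −0.221 to 0.377 and −0.167 to 2.23 (Nrcam 1430583_at, 1434709_at, 1458833_at, 1443281_at), −0.305 to 0.687 (Cntn1 1449563_at), −0.175 to 0.0627 (Cntn2 1450523_at) and −0.325 to 0.319 (Cntn3 1438628_x_at). The limma adjusted p of all these side means was at least 0.917. The cause of these shifts was not tested. Among the tested member probe sets, the ratios spread most for Nrcam 1443281_at (SD 2.69, signals of 7.47 to 256). Next was Cntn1 1449563_at (SD 1.04, signals of 445 to 1712).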

Other observations

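Other immunoglobulin adhesion molecules of axons were read in the same way. All 17 listed genes had a probe set of their own and 14 were tested with 31 probe sets, whose median log2(R/L) was −0.05, with 12 means above 0. The left pool was higher in all 3 embryos for 7 of the 31 and the right for 2, against 10.8% and 12.7% of all tested probe sets. Of these 7, 1426301_at, 1437466_at and 1437467_at all read Alcam, so the 7 are not separate genes. Neo1, neogenin, a netrin and repulsive guidance molecule receptor, met the fold rule in a dim probe set (1444295_at) that read 212, 432 and 149 in the left pools against 3.17, 219 and 130 in the right pools. Its log2(R/L) was −6.06, −0.98 and −0.20, and the size of its mean, −2.41 ± 3.18, rests on the right pool of embryo 1, and the mean was −1.09 with 50 added to each signal. The brightest Neo1 probe set (1447693_s_at) read 13662, 16881 and 17568 in the left pools against 16703, 18104 and 15590 in the right pools and averaged 0.07 ± 0.23. Dcc, the netrin receptor related to it, averaged −0.03 ± 0.04 at signals of 5907 to 7452.

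Among embryos, 2 of the 31 probe sets of this list passed limma with adjustment, against 0.27% of all tested probe sets. Both were of Alcam, an immunoglobulin adhesion molecule found on motor axons. Without the variance trend 0 probe sets of the array passed, so both calls ended there. Alcam 1426301_at read 1935, 492 and 612 in the left pools against 1819, 398 and 590 in the right pools (limma adjusted p = 0.0284). Both of its pools in embryo 1 were above all others, and Chl1 1435190_at was below all others in the same pools. These probe sets were singled out after their values were seen.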
